A study of Mus musculus with 6 samples.

Results

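The genes described here are those of the mouse major histocompatibility complex (MHC, named H2 in the mouse) and of antigen processing, measured as RNA in pressure-overloaded hearts. A gene was taken where a row of the array's value table carried exactly 1 gene symbol and that symbol began with H2- or was Cd74, Ciita, B2m, Tap1, Tap2, Tapbp, Psmb8, Psmb9, Psmb10, Nlrc5, Erap1, Cd80 or Cd86. The row of highest mean over the 6 arrays stood for each gene. This gave 42 of the 19938 genes with such a row, 29 of them with an H2 symbol and 34 of them on chromosome 17. Wild-type FVB males and their littermates carrying a cardiac-specific, inducible transgene that over-expresses the adenosine A2a receptor (A2a-R) were compared, 3 mice per genotype. The promoter that drives the transgene is not named in the labels. All 6 animals had transverse aortic constriction (TAC, a surgical narrowing of the aorta against which the left ventricle must pump) at 8 weeks of age, and hearts were taken 14 weeks later. RNA of each heart was run on 1 Affymetrix Mouse Gene 1.0 ST array. Unoperated hearts were not analysed here, so the values compare the genotypes under TAC and do not show what TAC did, and the transgene's own level was not analysed here. The samples are named below as wild type 1 to 3 and transgenic 1 to 3, and the main fit did not use the numbers to pair animals.

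MHC class I molecules, found on nearly all nucleated cells, consist of a heavy chain and B2m and show peptides made in the cytosol by the proteasome, carried into the endoplasmic reticulum by Tap1 and Tap2 and loaded with the help of Tapbp. MHC class II molecules are found mainly on macrophages, dendritic cells and B cells, where they are assembled with the invariant chain Cd74 and loaded with peptides cut in endosomes. Nlrc5 is the transactivator of class I genes and Ciita that of class II genes, and both act through a shared promoter module of X and Y boxes. In the heart, the cells richest in class II RNA are resident and recruited macrophages and dendritic cells, and in RNA of whole hearts fewer cells of a type and less RNA per cell cannot be told apart.

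Letters that match parts of this promoter module stand before the start sites of several of these genes, and 5 stretches that hold them are shown. A match in letters does not show a working module, and binding was not tested. RefSeq windows of 300 bases (250 before and 50 after the start, assembly GRCm38.p6) were given for 30 of the 42 genes, H2-Ab1, Cd74, Ciita and Nlrc5 not among them. The letters TGANG, the core of the second X box, followed after 15 to 24 bases by ATTGG, the Y box bound by NF-Y, were searched on both strands. Capitals mark these letters, and each stretch lies before the start and is written 5′ to 3′ on the strand of its gene. The windows of H2-Eb1 and H2-M3 hold 2 such pairs, of which 1 is marked. In each of these windows the 2 pairs overlap and end at the same ATTGG. The unmarked TGANG starts before the marked one in H2-Eb1 and inside it, as TGACG, in H2-M3. Which of them, if either, is the X box was not tested.
H2-Aa, chr17:34287847-34287927, strand -: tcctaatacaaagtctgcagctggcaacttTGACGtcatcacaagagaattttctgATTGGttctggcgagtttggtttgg
H2-Eb1, chr17:34305754-34305832, strand +: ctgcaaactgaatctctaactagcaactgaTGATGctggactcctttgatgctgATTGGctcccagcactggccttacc
H2-Ob, chr17:34238796-34238872, strand +: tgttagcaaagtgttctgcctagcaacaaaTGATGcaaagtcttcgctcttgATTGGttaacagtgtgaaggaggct
B2m, chr2:122147579-122147658, strand +: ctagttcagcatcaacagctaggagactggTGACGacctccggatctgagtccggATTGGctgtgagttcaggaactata
H2-M3, chr17:37270155-37270233, strand +: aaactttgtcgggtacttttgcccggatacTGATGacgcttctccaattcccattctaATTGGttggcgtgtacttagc

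The pair was present in the windows of 7 genes: H2-Aa, H2-Eb1, H2-Eb2, H2-Ob, B2m, H2-M3 and H2-Q4. That was 23.3% of the member genes with a window, against 2.63% of all 32851 windows and 3% of all genes with a window. The letters and the spacing were chosen after these promoters had been read, so these shares are a description of the sequences and no test. ATTGG alone, which the pair contains, stood in the windows of 24 of the 30 genes (80%), against 41.1% of all genes with a window. Many of the 24 are H2-M genes of related sequence and no independent cases, so this share too is a description and no test. The core of the interferon-stimulated response element, GAAANNGAA, was in the windows of B2m and Erap1 only. That was 6.67% of the 30 genes, against 9.76% of all genes with a window. The palindrome TTCNNNGAA, bound by STAT factors, was in the windows of 3 (10% against 9.55%). Psmb9 and Tap1 share 275 bases of their windows, since they start back to back on opposite strands. Both windows hold ATTGG, and the same site can count for both.

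The arrays were much alike as a whole, with a small split by genotype. Over all rows the means of the 6 arrays lay between 7.029 and 7.056 on the log2 scale. The SD over all rows was 2.083 to 2.099 on wild-type arrays and 2.052 to 2.066 on transgenic ones, which were thus slightly narrower. Correlations lay between 0.9958 and 0.9973 within a genotype and between 0.9926 and 0.9957 across genotypes. The part of this spread in the members' differences was not tested. The 12 cardiomyocyte markers had mean log2 values of 12.39 to 14.28, where the median row of the table had 7.135. Differences below are transgenic minus wild type in log2 units (a difference of 1 is a doubling), errors are SE from limma unless named SD, and an adjusted p is limma's, with Benjamini-Hochberg adjustment over all 21789 rows with 1 symbol and a threshold of 0.05. Values of different genes are not comparable as levels, because each row has its own probes.

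Of the 42 genes, H2-T10 was the only one that rose and Psmb10 the only one that fell, and 40 did not pass the test. Over all tested rows, 0.519% rose and 0.441% fell. At an unadjusted p under 0.05, 7 members (16.7%) were higher, against 6.27% of all tested rows, and 2 (4.76%) were lower, against 8.51%. The 3 transgenic arrays lay above all 3 wild-type arrays for 9 members (21.4%), against 7.73% of all rows, and below them for 2 (4.76%), against 12.6%. In all, 32 members were higher and 9 lower in the transgenic hearts, and H2-M10.2 had the same mean in both groups. When the arrays were quantile-normalised again, 28 were higher and 14 lower. The median difference over the members was 0.08, where that over all tested rows was -0.01 and 44.7% of all rows were higher. The 9 members with an unadjusted p under 0.05 were all among the 20 whose mean lay at or above the median row, and none of the 22 dimmer members reached it. The shares of all brighter and all dimmer rows at that p are not given here, so this split is not read as a trait of the members.

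**Figure D1:**
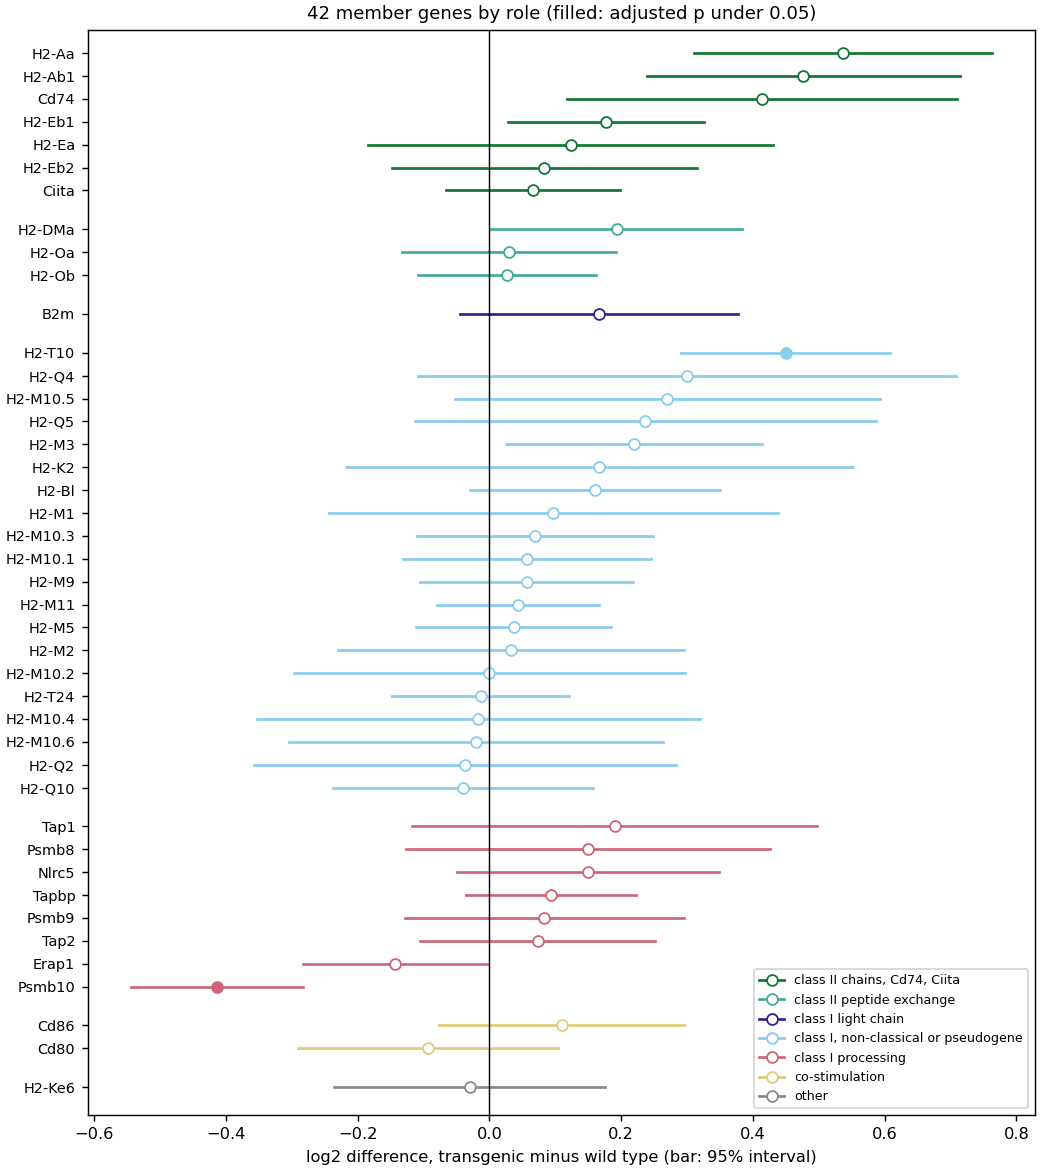
Each point is the difference of 1 member gene in log2 units, transgenic minus wild type, with its 95% interval as a bar; genes are grouped by role and filled points passed an adjusted p of 0.05. Only H2-T10, at 0.45, and Psmb10, at -0.41, are filled, and all 7 points of the class II group (top) lie to the right of zero.

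The class II chain genes, with the invariant chain and Ciita, were higher in the transgenic hearts in 7 of 7 cases, with a median difference of 0.18, and none passed the adjusted threshold. The 4 genes H2-Aa, H2-Ab1, Cd74 and H2-Eb1 had an unadjusted p under 0.05 and no overlap between the groups. That was 57.1% of the 7 by each measure, against 6.27% and 7.73% of all tested rows in the same direction. H2-Aa encodes the alpha chain of I-A, the classical class II molecule. Its log2 values were 9.53, 9.75 and 9.36 in wild type 1 to 3 and 10.02, 10.15 and 10.08 in transgenic 1 to 3. The highest wild-type array lay 0.27 below the lowest transgenic one. The difference was 0.54 ± 0.10 (95% interval 0.31 to 0.76), or 1.45-fold, with an adjusted p of 0.0534. That value fell to 0.0408 when the arrays were quantile-normalised again, to 0.0374 when they were centred on their medians and to 0.0376 without wild type 2, and stood at 0.119 without wild type 3 (range over all alternatives 0.00787 to 0.151).

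H2-Ab1, the beta chain that pairs with H2-Aa, had log2 values of 8.25, 8.41 and 8.06 in wild type and 8.66, 8.62 and 8.87 in transgenic hearts. The groups did not overlap, the difference was 0.48 ± 0.10 (0.24 to 0.71), or 1.39-fold, and the adjusted p was 0.0893. Cd74, the chaperone that blocks the peptide groove until the endosome is reached, had 10.16, 10.27 and 9.75 in wild type and 10.39, 10.58 and 10.45 in transgenic hearts. Wild type 3 stood well below the other arrays here. The difference was 0.41 ± 0.13, with an adjusted p of 0.202, and without wild type 3 it was 0.26, with an adjusted p of 0.287.

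H2-Eb1, the beta chain of I-E, the other class II molecule, had 7.43, 7.46 and 7.38 in wild type and 7.67, 7.50 and 7.63 in transgenic hearts. The groups were separate by 0.04, and the difference of 0.18 ± 0.06 had an adjusted p of 0.266. H2-Ea, the alpha chain of I-E, and H2-Eb2, a minor beta chain, differed by 0.12 and 0.08 with overlapping groups. FVB mice carry the q haplotype of the complex, which is known for making no I-E alpha chain, and RefSeq lists H2-Ea of the reference strain as a transcribed pseudogene. Ciita, the class II transactivator, had 6.43, 6.42 and 6.47 in wild type and 6.54, 6.44 and 6.54 in transgenic hearts, an overlapping pair of groups with a difference of 0.07 ± 0.06 and an adjusted p of 0.652.

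**Figure D2:**
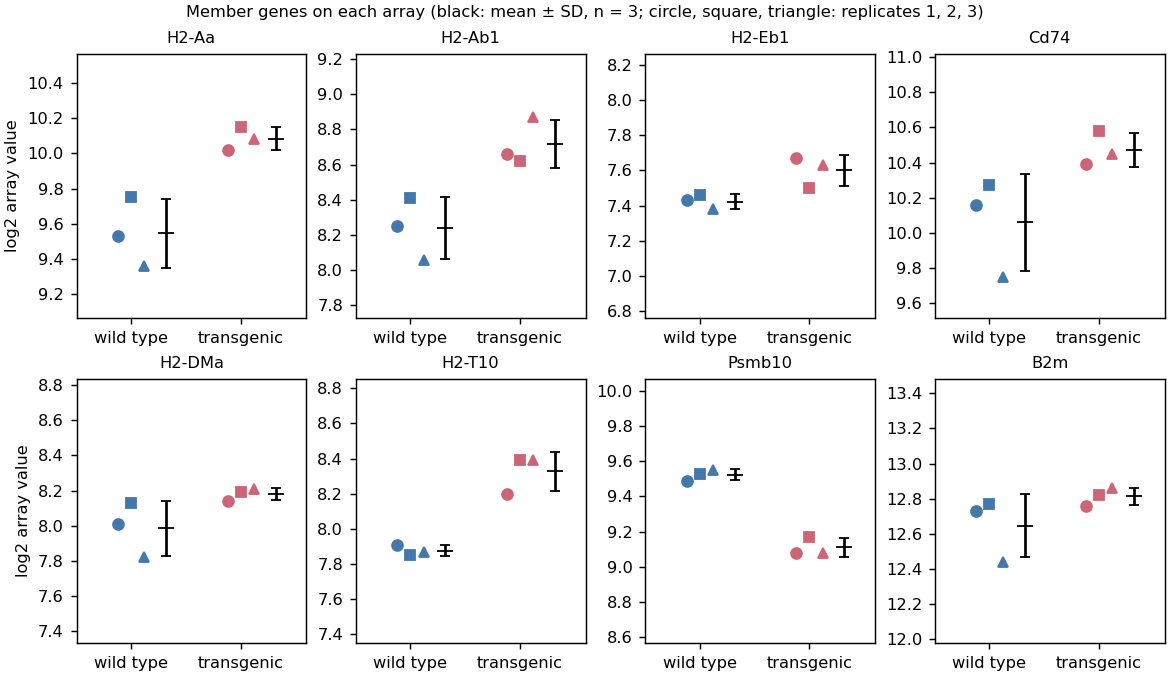
The log2 value of 8 member genes is shown for each array, wild type in blue and transgenic in red, with the mean ± SD of 3 arrays in black; every panel spans the same range of log2 units. The groups are separate for all genes shown but B2m, and wild type 3 (blue triangle) is the lowest array for H2-Aa, H2-Ab1, H2-Eb1, Cd74, H2-DMa and B2m.

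Of the genes that exchange peptides on class II molecules, H2-DMa, a chain of the H2-DM molecule that removes the invariant chain's last fragment, had 8.01, 8.13 and 7.82 in wild type and 8.14, 8.19 and 8.21 in transgenic hearts. The groups were separate by 0.01, and the difference of 0.19 ± 0.08 had an adjusted p of 0.333. H2-Oa and H2-Ob, which form the molecule that restrains H2-DM, each differed by 0.03 and overlapped, and H2-Ob is a member with the X and Y letters shown above. The row annotated to both H2-DMb1 and H2-DMb2 differed by 0.24, with groups that did not overlap and an adjusted p of 0.337 over all rows of the table.

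For class I, the transplantation antigens H2-K1 and H2-D1 have no row of their own and can be described only as shared rows. In all, 11 class I symbols occur only in such rows. There are 7 such rows, and 6 of these were higher and 1 lower in transgenic hearts. Of them 3, all higher, had an unadjusted p under 0.05 (6.27% of the tested rows with 1 symbol) and 0 an adjusted p under 0.05 in limma's fit over all rows. One row annotated to H2-D1, LOC547349 and H2-K1 had 11.23, 11.33 and 10.94 in wild type and 11.29, 11.39 and 11.42 in transgenic hearts, a difference of 0.20 with overlapping groups. The other had 9.73, 10.01 and 9.44 in wild type and 10, 10 and 10.25 in transgenic hearts, a difference of 0.36 with an adjusted p of 0.322. Wild type 3 was the lowest array in both, and which of the genes gave the signal cannot be told from either row. The probes follow a reference sequence while the classical chains differ between strains, and the effect of that on these rows was not tested.

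B2m, the light chain of all class I molecules and the brightest member, had 12.73, 12.77 and 12.44 in wild type and 12.76, 12.82 and 12.86 in transgenic hearts. Wild type 2 exceeded transgenic 1, and the difference of 0.17 ± 0.09 had an adjusted p of 0.452. Without wild type 3 it was 0.06.

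H2-T10 was the member that rose. Its product is a non-classical class I chain that shows no peptide and is known as a ligand of some gamma delta T cells in the strains that make it, and RefSeq lists the gene of the reference strain as a transcribed pseudogene. The log2 values were 7.91, 7.85 and 7.87 in wild type and 8.20, 8.39 and 8.39 in transgenic hearts. All 3 transgenic arrays were at least 0.29 above all wild-type arrays. The difference was 0.45 ± 0.07 (0.29 to 0.61), or 1.37-fold, with an adjusted p of 0.0277. The call held without transgenic 1, with an adjusted p of 0.0218, and was lost without any other single array, with adjusted p between 0.0814 (without wild type 1) and 0.121 (without wild type 2) and differences of 0.42 to 0.47. A further row that this gene shares with H2-T9 and H2-T22 had 7.75, 7.73 and 7.78 in wild type and 7.85, 7.91 and 8.25 in transgenic hearts, a difference of 0.25 with separate groups and an adjusted p of 0.339. H2-T10 has close copies in the T region, and how far its own row answers to them was not tested.

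Of the 20 class I genes that are non-classical or pseudogenes, 14 were higher, 5 lower and 1 equal, with a median difference of 0.06. When the arrays were quantile-normalised again, 10 were higher and 10 lower, so no direction is given for this group. H2-M3, which presents peptides that begin with formyl-methionine, had 7.32, 7.25 and 7.14 in wild type and 7.42, 7.34 and 7.61 in transgenic hearts. Its groups were separate by 0.02, and the difference of 0.22 ± 0.08 had an adjusted p of 0.283. H2-Bl had 5.55, 5.62 and 5.55 in wild type and 5.91, 5.63 and 5.66 in transgenic hearts, a difference of 0.16 ± 0.08 with an adjusted p of 0.422. The Q region gave 0.30 for H2-Q4 and 0.24 for H2-Q5, each with overlapping groups and wild type 3 lowest, and -0.04 for both H2-Q2 and H2-Q10, the last of which encodes a secreted class I chain made mainly in liver. H2-K2 differed by 0.17 and H2-T24 by -0.01. The H2-M10 genes, expressed with H2-M1 and H2-M9 in the vomeronasal organ, were dim in these hearts: H2-M10.5 differed by 0.27 with overlapping groups, and H2-M10.1, H2-M10.2, H2-M10.3, H2-M10.4 and H2-M10.6 lay between -0.02 and 0.07. H2-M1, H2-M2, H2-M5, H2-M9 and H2-M11 lay between 0.03 and 0.10. H2-Ke6, which has an H2 symbol for its place in the complex and encodes a steroid dehydrogenase, differed by -0.03.

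**Figure D3:**
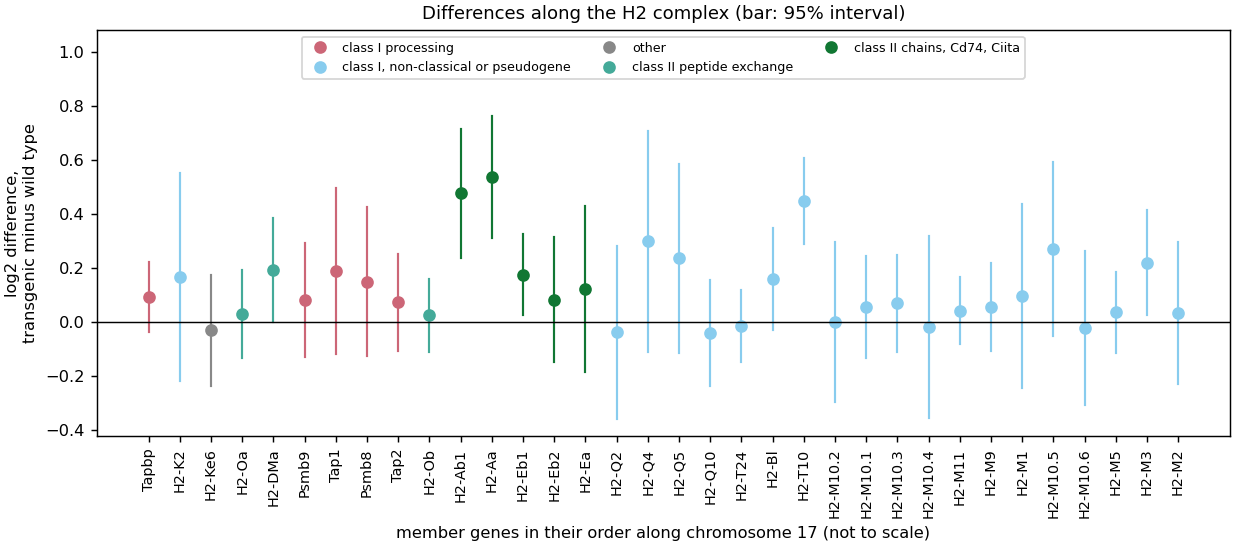
Differences in log2 units, transgenic minus wild type, with 95% intervals as bars, for the 34 member genes on chromosome 17 in their RefSeq order, evenly spaced and so not to scale. The neighbours H2-Ab1 and H2-Aa stand highest, at 0.48 and 0.54, and H2-T10 at 0.45 lies among genes with smaller differences.

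The antigen processing genes did not share a direction. Psmb10 fell and Erap1 was lower without passing the test, while Tap1, Tap2, Tapbp, Psmb8, Psmb9 and Nlrc5 were higher by 0.07 to 0.19 with none past the threshold. Psmb10 encodes MECL-1, the immunoproteasome subunit that takes the place of Psmb7 in the catalytic core. Its log2 values were 9.49, 9.53 and 9.55 in wild type and 9.08, 9.17 and 9.08 in transgenic hearts. The groups were separate with SD of 0.03 and 0.05 inside them. The difference was -0.41 ± 0.06 (-0.54 to -0.28), 1.33-fold lower in transgenic hearts, with an adjusted p of 0.0172. It kept an adjusted p under 0.05 without wild type 1 (0.0498) or transgenic 2 (0.0335) and lost it without wild type 2 (0.0863), wild type 3 (0.0799), transgenic 1 (0.0668) or transgenic 3 (0.0728), with differences of -0.44 to -0.40 throughout.

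The other catalytic subunits of the immunoproteasome, encoded beside Tap1 and Tap2 in the class II region, did not pass the test. Psmb8 (LMP7) had 7.08, 7.39 and 7.13 in wild type and 7.30, 7.17 and 7.58 in transgenic hearts, a difference of 0.15 ± 0.12 with an adjusted p of 0.625. Psmb9 (LMP2) had 8.40, 8.54 and 8.35 in wild type and 8.52, 8.35 and 8.67 in transgenic hearts, a difference of 0.08 ± 0.09 with an adjusted p of 0.738. Both overlapped between the groups, whereas Psmb10, on chromosome 8, did not. The standard subunits that they replace differed by -0.02 ± 0.06 for Psmb5, 0.15 ± 0.08 for Psmb6 and -0.13 ± 0.07 for Psmb7, with adjusted p of 0.911, 0.442 and 0.447. Psmb7, the counterpart of Psmb10, had 9.89, 10.01 and 10.03 in wild type and 9.74, 9.90 and 9.90 in transgenic hearts, which overlapped. Whether Psmb10 differed from its partners was not tested.

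**Figure D4:**
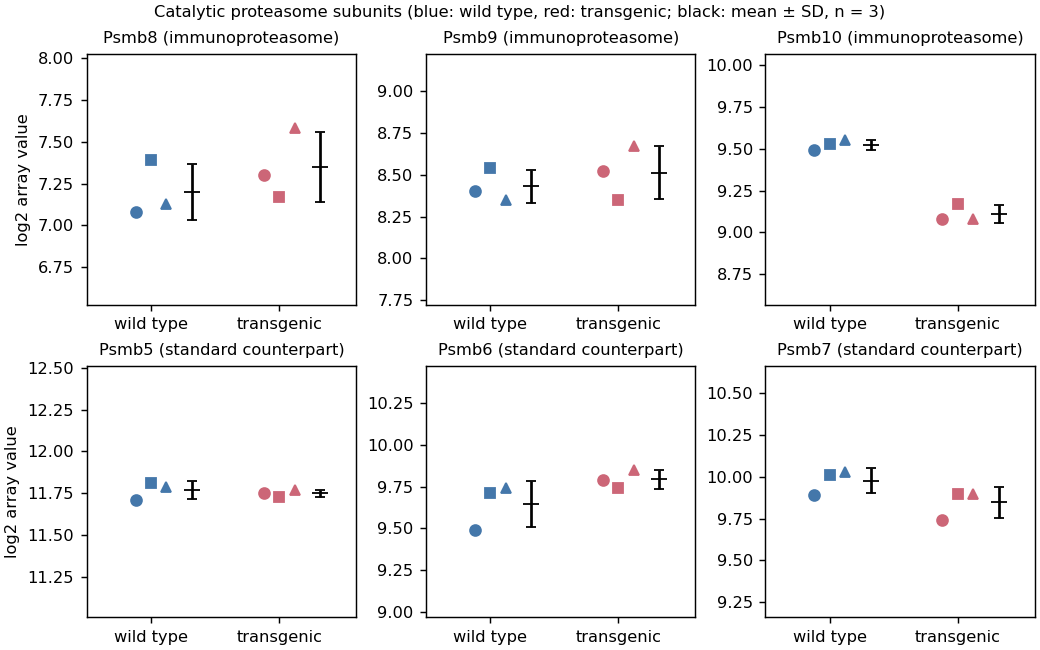
Log2 values on each array (circle, square and triangle for replicates 1, 2 and 3) of the immunoproteasome subunits in the upper panels and the standard subunits that they replace in the lower panels, with the mean ± SD of 3 arrays in black and the same span of log2 units in every panel. Psmb10 is the panel with clearly separate groups, at 9.52 in wild type and 9.11 in transgenic hearts.

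Erap1, the aminopeptidase that trims peptides to class I length in the endoplasmic reticulum, had 7.96, 7.95 and 7.98 in wild type and 7.73, 7.88 and 7.85 in transgenic hearts. The groups did not overlap, and the difference of -0.14 ± 0.06 had an adjusted p of 0.329. Tap1, a subunit of the peptide transporter, had 7.88, 8.26 and 7.70 in wild type and 8.18, 8.02 and 8.21 in transgenic hearts. It overlapped, with a difference of 0.19 ± 0.13 and an adjusted p of 0.568. Its partner Tap2 differed by 0.07. Tapbp (tapasin) had 9.62, 9.68 and 9.60 in wild type and 9.70, 9.71 and 9.77 in transgenic hearts, separate by 0.02, with a difference of 0.09 ± 0.06 and an adjusted p of 0.492. A further pair of rows, annotated to both Tapbp and Rps3a1, each differed by -0.10.

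Nlrc5, the class I transactivator, had 9.54, 9.47 and 9.28 in wild type and 9.66, 9.46 and 9.62 in transgenic hearts. The groups overlapped, with a difference of 0.15 ± 0.09 and an adjusted p of 0.476. The table holds 19 rows for Nlrc5, of which 16 were higher and 3 lower, by 0.02, 0.11 and 0.11. Their differences ran from -0.11 to 0.31 with a median of 0.07. In limma's fit 2 rows, both higher, had an unadjusted p under 0.05, where 6.27% of all tested rows were higher at that p. An adjusted p under 0.05 was reached by 0 rows.

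The co-stimulatory ligands Cd80 and Cd86, which bind Cd28 on T cells, showed no called difference. Cd80 had 7.16, 7.04 and 7.23 in wild type and 7.05, 7.19 and 6.91 in transgenic hearts, a difference of -0.09, and its second row differed by -0.02. Cd86 had 5.86, 6.07 and 5.95 in wild type and 5.94, 6.13 and 6.14 in transgenic hearts, a difference of 0.11. The adjusted p were 0.678 and 0.59, and the groups overlapped for both.

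One wild-type heart moved with many of these genes at once. Wild type 3 was the lowest of the wild-type arrays for 26 of the 42 members (61.9%), where it was so for 33.1% of all tested rows. The mean deviation of the members from their 6-array means was -0.15 in wild type 3 and 0.12 in transgenic 3, against -0.03, 0.01, 0.06 and -0.01 in wild type 1, wild type 2, transgenic 1 and transgenic 2. Over all tested rows the same quantity lay between -0.02 and 0.01 on every array. Without wild type 3, 30 members were higher and 12 lower, the median difference of the members was 0.06, 5 members had an unadjusted p under 0.05 and 0 an adjusted one in limma's fit. Without transgenic 3, 33 were higher and 9 lower, the median was 0.04, and the counts were again 5 and 0. The shares of all tested rows at the unadjusted p in these fits are not given here. The 7 class II genes were all higher when each of the other 5 arrays was left out, and 6 of 7 were without transgenic 3. H2-Aa differed by 0.44 and H2-Ab1 by 0.39 without wild type 3. Without wild type 3, H2-DMa differed by 0.11, Nlrc5 by 0.075, Tap1 and Psmb9 by 0.07 and 0.04, H2-Q4 and H2-Q5 by 0.085 and 0.10, and H2-K2 by -0.05. Without transgenic 3, H2-M3 differed by 0.14, Psmb8 by 0.035, Psmb9 by 0.005, Cd80 by -0.02 and H2-Ea by -0.04. Other arrays counted too: Tap1 differed by 0.35 and Psmb8 by 0.245 without wild type 2, H2-Bl by 0.07 without transgenic 1 and Cd86 by 0.06 without wild type 1. What set these hearts apart was not tested.

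**Figure D5:**
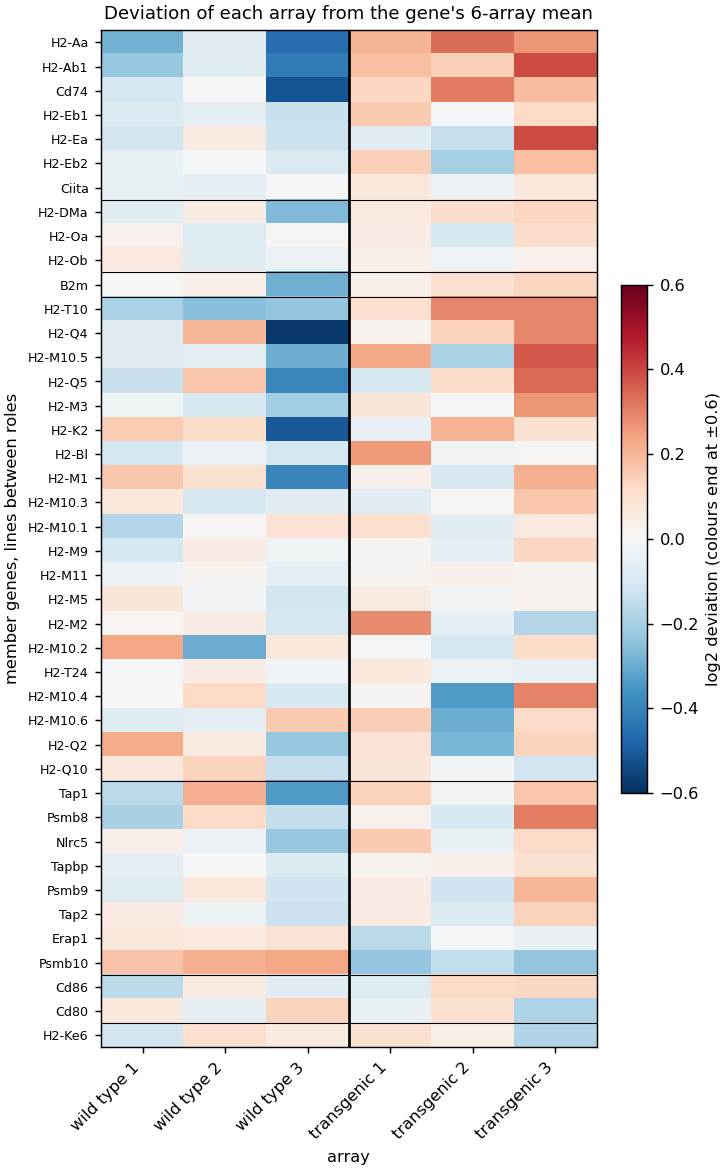
Colours give the deviation of each array (columns) from the mean of the 6 arrays for each member gene (rows, grouped by role), in log2 units from -0.6 (blue) to 0.6 (red). Wild type 3 is the lowest of the 6 arrays for 19 of the 42 members, and Psmb10 near the bottom is high in wild type and low in transgenic hearts.

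Genes of the wider pathways were counted in lists of related genes. For comparison with these and the later lists, 44.7% of all tested rows were higher. At an unadjusted p under 0.05 in limma's fit, 6.27% were higher and 8.51% lower. In the class II list (endosomal proteases and the factors that bind the X and Y boxes), 19 of 21 genes had a row; 11 were higher and 8 lower, the median difference was 0.04, 1 rose and 0 fell. The gene that rose was Ctsh, an endosomal cathepsin, with 7.72, 7.69 and 7.58 in wild type and 8.04, 8.28 and 8.16 in transgenic hearts. Its groups did not overlap, and the difference of 0.50 ± 0.08 had an adjusted p of 0.0282. This call was lost when any array but transgenic 1 was left out, with adjusted p of 0.0738 to 0.108. When the arrays were quantile-normalised again, 4 genes of the list passed the threshold. Ctss, the cathepsin that makes the last cuts in the invariant chain, had 7.66, 7.77 and 7.80 in wild type and 8.04, 8.11 and 8.17 in transgenic hearts, which did not overlap. It differed by 0.36 ± 0.06 with an adjusted p of 0.0503. Lgmn, the endosomal legumain, differed by 0.32 (adjusted p 0.0724), and Ifi30, the thiol reductase GILT, by 0.36 (adjusted p 0.0892). The members of the X and Y box complex showed no called change: Rfx5, Rfxap and Rfxank differed by -0.05, -0.04 and 0.04, Nfya, Nfyb and Nfyc by -0.14, -0.09 and 0.06, and Creb1 by -0.18.

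In the class I list of chaperones, proteasome and translocation genes, 21 of 24 had a row; 9 were higher and 12 lower, the median was -0.02, and limma called 0, with 1 higher and 2 lower at an unadjusted p under 0.05. Mr1, the class I-like chain that shows microbial vitamin metabolites to MAIT cells, had 9.64, 9.46 and 9.58 in wild type and 9.27, 9.16 and 9.25 in transgenic hearts. The groups were separate, the difference was -0.33 ± 0.07 and the adjusted p was 0.0747. The proteasome activators Psme1 and Psme3 differed by 0.23 and -0.14, with adjusted p of 0.22 and 0.334. The loading chaperones Calr, Canx and Pdia3 differed by -0.02, -0.08 and -0.08.

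Interferon signals drive class I genes, Ciita and the immunoproteasome in many cells. Of the listed interferon inputs and targets, 32 of 37 had a row; 19 were higher and 13 lower with a median of 0.03, and limma called 0, with 3 higher and 3 lower at an unadjusted p under 0.05. Wild type 3 was the lowest wild-type array for 18 of the 32, where it was so for 33.1% of all tested rows. Wild type 1 was the lowest for 7 and wild type 2 for 6. Ifit2 differed by -0.36 and Ifit1 by 0.25 (adjusted p 0.142 and 0.195). The interferon gamma receptor chain Ifngr2 had 12.32, 12.40 and 12.43 in wild type and 12.15, 12.14 and 12.22 in transgenic hearts, a difference of -0.21 with an adjusted p of 0.157. Of the 18 costimulation and checkpoint genes, 7 were higher and 10 lower with a median of -0.02, and limma called 0 with 0 at an unadjusted p under 0.05. Cd28, Pdcd1lg2 and Pdcd1 had the smallest p of these and differed by -0.18, -0.12 and 0.08, with adjusted p of 0.405, 0.423 and 0.618.

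Macrophage and monocyte markers, whose cells carry class II molecules, were mostly higher as well. Of 21 listed, 19 had a row. In transgenic hearts 17 were higher and 2 lower, where 44.7% of all tested rows were higher. At an unadjusted p under 0.05, 9 were higher and 0 lower, against 6.27% and 8.51% of all tested rows. The groups were separate for 9, all of them higher, against 7.73% of all tested rows, and limma called 0. It called 3 when the arrays were quantile-normalised again, 3 when they were centred on their medians, 1 without wild type 1 and 2 without wild type 2. The median difference was 0.19. The sum of the 19 rows on the linear scale was 7703, 7763 and 6926 in wild type and 9115, 9817 and 9062 in transgenic hearts, which did not overlap, and wild type 3 was again the lowest. Bright rows such as Lyz2 and C1qb weigh most in this sum, which compares arrays and is no level of the cells. Cd68, a lysosomal membrane protein of macrophages, differed by 0.62 (adjusted p 0.0622), and the complement genes C1qb and C1qc by 0.42 and 0.47 (0.0537 and 0.0558). Without wild type 3, 15 markers were higher and 4 lower, with 5 at an unadjusted p under 0.05. The share of all tested rows at that p without wild type 3 is not given here. The part of these cells in the class II values was not tested.

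Markers of dendritic, B, T and NK cells had smaller median differences than the macrophage list. Of 11 dendritic cell markers, 10 were higher and 1 lower with a median of 0.04. At an unadjusted p under 0.05, 2 were higher and 0 lower, and limma called 0. Their summed level overlapped, with 889 to 980.5 over the wild-type arrays and 924.5 to 1045 over the transgenic ones. Clec10a, Cd209a and Ccr7 differed by 0.29, 0.26 and 0.27 (adjusted p 0.194, 0.337 and 0.357). The 1 lower gene, Zbtb46, a transcription factor of classical dendritic cells and the brightest row of the list, differed by -0.14 with separate groups and an adjusted p of 0.373. The defining genes Flt3, Xcr1 and Clec9a had means between 5.65 and 6.02 in both groups, below the median row, and differed by 0.01, 0.04 and 0.07. Of 10 B cell markers, 9 had a row; 6 were higher and 3 lower with a median of 0.04, with sums of 502.4 to 528 over the wild-type arrays and 495 to 525 over the transgenic ones. Cd79a, a defining gene, was among the dimmest at 4.66 and 4.32, and Blk and Cd79a differed by -0.34 and -0.35 (adjusted p 0.0705 and 0.137) against 0.19 for Ms4a1 (0.288). Of 16 T and NK cell markers, 15 had a row; 8 were higher and 7 lower with a median of 0.03, and Cd3g, Klrb1c and Gzma differed by 0.28, -0.15 and 0.17 (adjusted p 0.277, 0.317 and 0.327). Their sum was 897.4 to 948.4 over the wild-type arrays and 912.4 to 1007 over the transgenic ones. Limma called 0 in the B cell and in the T and NK cell list. At an unadjusted p under 0.05, 1 was higher and 2 lower in the B cell list. In the T and NK cell list 2 were higher and 1 lower at that p, where 6.27% and 8.51% of all tested rows were. The part of these cells in the results was not tested.

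Among the structural cells, 1 of 10 endothelial markers was higher and 9 were lower, with a median of -0.07; Flt1, Kdr and Cldn5 differed by -0.17, -0.14 and -0.35 (adjusted p 0.295, 0.299 and 0.518). Of 10 fibroblast markers, 4 were higher and 4 lower, and Lum, Dpt and Tcf21 differed by -0.11, 0.17 and 0.10. Of 12 cardiomyocyte markers, 4 were higher and 8 lower with a median of -0.03, and Ryr2, Myl3 and Mb differed by 0.25, -0.13 and -0.09 (adjusted p 0.149, 0.37 and 0.461). Limma called 0 in each of these lists. At an unadjusted p under 0.05, 2 endothelial markers were lower and 1 cardiomyocyte marker was higher, with 0 in the fibroblast list. Of all tested rows, 8.51% were lower and 6.27% higher at that p. The part of these cells in the Psmb10 value was not tested.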

How the data were processed

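RNA of 6 hearts, 3 per genotype, was measured on 1 array each. The authors deposited log2 values. The tools listed in the submitters' processing notes are RMA (background correction, alignment of the arrays' distributions and a summary over probes) and Partek, and their versions and the genome build were not given in the sources used here. The SD over all rows of the deposited values still differed between the genotypes, as given above. Probe values were not examined, so how well the arrays were aligned before the summary over probes was not judged. RMA hides a shift of all RNA and compresses dim and very bright rows. Of 28853 rows, 21789 carry 1 gene symbol, 1621 several and 5443 none in the platform annotation; only the first were tested. Transgenic was compared with wild type by limma 3.58.1 in R 4.3.3 (lmFit, then eBayes with its default prior and without covariates) on the unaltered values, with Benjamini-Hochberg adjustment over those rows. The procedure was tested on simulated data. All 42 members were found in RefSeq (GRCm38.p6), with 0 symbols changed.

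The members, lists and tests were chosen with earlier results of these data known, and give no independent support. Every member is named; values on all arrays are given for called members, the 10 members of smallest p and a set list of main genes, and of each related or marker list the called genes and 3 others of smallest p; other genes named were chosen after their values were seen. The number of arrays limits the precision. Alternatives tried were another scaling, another variance prior, array weights, other row choices, a replicate block and leaving out each array.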

Additional observations from a re-analysis of the deposited data

How the results depend on the processing

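The file holds no background calls, so whether dim genes were detected was not judged. The count of called members moved from 2 to 4 when the dimmest 40% of rows were left out, with a trended and robust variance prior and at an adjusted p under 0.10, H2-Aa and H2-Ab1 being added to Psmb10 and H2-T10. The count over all rows moved from 209 to 493, 579 and 476 under these, and the members' median from 0.0833 to 0.167 without the dimmest rows, where fewer members remain. The calls over all rows were 113 higher and 96 lower as deposited, 136 and 106 when quantile-normalised again and 129 and 147 when arrays were centred on their medians. Leaving out 1 array at a time gave 84 to 147 called rows, 0 to 1 called members, 5 to 12 members at an unadjusted p under 0.05 and 11 to 17 members with separate groups. Groups of fewer arrays separate more easily, and the shares given above hold for all 6 arrays. Shares of all rows at the unadjusted p or with separate groups are not given for these or the other alternatives. The replicate numbers were used as names only in the main fit. Correlations of same-numbered deviations were 0.155, -0.0113 and -0.104, and so few arrays cannot show whether hearts were handled in pairs. With the replicate block limma called 97 rows and 0 members, and 6 members had an unadjusted p under 0.05. The adjusted p was then 0.0677 for Psmb10 and 0.0859 for H2-T10. Over the 18 members chosen for values on all arrays (called, of smallest p, or on the set list) and 285 single alternatives, 264 kept direction and side of the threshold, 11 lost the call, 10 gained it and 0 reversed. Of the other 24 members, none of them called, 8 changed direction when quantile-normalised again (H2-Ke6 from -0.03 to 0.01), 0 when centred and 13 when 1 or another array was left out. The causes of these changes were not tested.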
